A study of Mus musculus with 4 samples.

Results

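The genes described here present peptides to T cells: the class I and class II molecules of the mouse major histocompatibility complex (H2), the proteins that cut, carry and load their peptides, and the 2 transcriptional activators Ciita and Nlrc5. A list of 32 genes was combined with every other gene whose symbol starts with H2-, which added 13, so that 45 of 20640 measured genes were followed. The lungs came from 8-week-old female C57BL/6 mice given 150000 HKP1 cells, a mouse lung adenocarcinoma line, by tail vein. Mice were allotted on day 6 and received 0 Gy (mock) or 4 Gy on each of 3 days, from day 10 to day 12, with 4 mice per treatment, and lungs were taken 24 to 48 h after the last exposure. Live cells were sorted into CD45-negative (non-haematopoietic) and CD45-positive (leukocyte) fractions and sequenced with the 10x 3′ assay. This gave 1 library per dose and fraction, so no difference below has a replicate check, and none was tested; the labels do not say how the 4 mice were divided over a library. All 4 libraries share the tumour, and no tumour-free lung was analysed here.

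Class I molecules pair a heavy chain (such as H2-K1 or H2-D1) with B2m and show peptides from inside the cell to CD8 T cells; the immunoproteasome subunits Psmb8, Psmb9 and Psmb10 and the activator subunits Psme1 and Psme2 help produce these peptides, Tap1 and Tap2 pump them into the endoplasmic reticulum, and Tapbp and Erap1 help to load and trim them. Class II molecules (such as H2-Aa with H2-Ab1) show endocytosed peptides to CD4 T cells, and H2-Eb1 is the beta chain of another class II molecule. The invariant chain Cd74, the loading factor H2-DM and its modulator H2-O help class II molecules, which depend on Ciita. Dendritic cells, B cells and macrophages are the classical class II carriers, and lung capillary endothelium is known to carry class II as well.

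Of the 45 genes, 34 lie on chromosome 17 between 33915899 and 37483552 in GENCODE M21 (mm10 coordinates), 21 of them from the list. RefSeq promoters (GRCm38.p6) were available for 33 of the 45. The bases before the start of 2 class I genes and 2 class II genes are shown because the doses differed in opposite ways for these classes in some cells. Capitals mark matches, on either strand, to the CCAAT box (CCAAT, read as ATTGG on the other strand), an interferon-type element (GAAA, any pair of bases, GAAA), a kappaB-like element (GGGA, any base, T, any base, CCC) and an X1-like element (AGCAAC). Each run ends at the base before the start and holds 170 bases: chr17:34000348-34000517 (minus strand) for H2-K1, chr2:122147517-122147686 (plus) for B2m, chr17:34287824-34287993 (minus) for H2-Aa and chr17:34305697-34305866 (plus) for H2-Eb1.
H2-K1: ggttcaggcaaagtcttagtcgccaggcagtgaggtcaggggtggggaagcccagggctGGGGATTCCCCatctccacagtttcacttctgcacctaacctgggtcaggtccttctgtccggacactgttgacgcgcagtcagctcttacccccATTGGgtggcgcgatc
B2m: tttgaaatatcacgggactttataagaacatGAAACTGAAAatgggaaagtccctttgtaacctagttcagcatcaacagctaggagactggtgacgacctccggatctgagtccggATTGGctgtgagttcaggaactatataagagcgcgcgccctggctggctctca
H2-Aa: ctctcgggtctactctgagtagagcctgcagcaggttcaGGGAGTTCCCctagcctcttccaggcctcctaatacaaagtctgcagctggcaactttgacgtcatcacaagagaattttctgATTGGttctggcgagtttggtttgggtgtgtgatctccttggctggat
H2-Eb1: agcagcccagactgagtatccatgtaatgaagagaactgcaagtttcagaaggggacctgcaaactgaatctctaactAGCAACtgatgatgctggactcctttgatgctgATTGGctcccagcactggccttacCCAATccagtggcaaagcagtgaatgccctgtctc
In the 250 bases before the start, a CCAAT box was found in 9 of 9 class I genes, 6 of 7 class II genes and 3 of 8 peptide supply genes searched, and in 34.5% of 27025 promoters. The kappaB-like letters were found in 5 of 9 class I genes and 1 of 7 class II genes, against 0.907% of promoters. The interferon-type letters were found in 3 of 9 class I genes (3.04% of promoters), and the X1-like letters in 3 of 7 class II genes (12.3% of promoters). These are matches of letters and say nothing of binding.

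The libraries held 5979 and 4313 cells (CD45-negative, 0 and 4 Gy) and 5415 and 9608 cells (CD45-positive), with median counts of 1894, 2087, 3096 and 2606 molecules (UMIs) per cell. Any pair of libraries shared between 3 and 17 cell barcodes. Cells were assigned to classes by markers that include none of the 32 genes, and each class is called "like" its cell type for that reason. The classes compared, with cells at 0 and 4 Gy, were general capillary-like (4336 and 3021), aerocyte-like (484 and 357), arterial-like (70 and 83), venous-like (131 and 115), classical monocyte-like (161 and 315), nonclassical monocyte-like (137 and 197), interstitial macrophage-like (72 and 158), conventional dendritic-like (52 and 54) and B-like (2302 and 3403). Tumour-like cells (87 and 32) fell under the minimum of 50 cells and are described only. Levels are counts per 1000000 UMIs of the class (CPM). A ratio is 4 Gy over 0 Gy, its bracketed 95% interval is exact but covers counting error only, and a gene is counted as different when its CPM are at least 1.5-fold higher or lower, with 3 UMIs put in place of 0, and it has at least 10 UMIs over both libraries. Directions on the log2 scale use log2(CPM + 5), so a low gene can be counted as different with a small log2 ratio. The median log2 ratio over all genes with 10 UMIs lay between -0.01 and 0.07 in these classes, so the scale itself moved little.

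**Figure D1:**
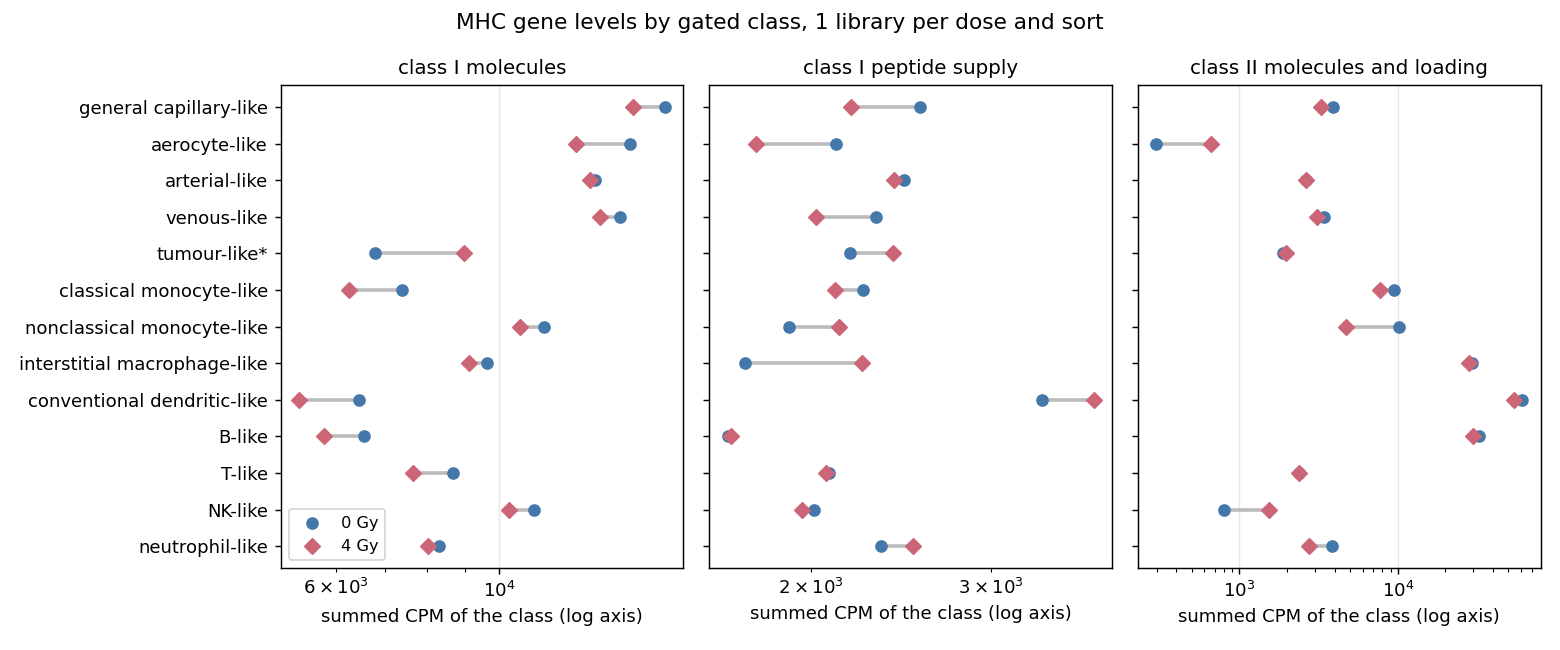
Summed level of 3 gene lists (CPM of the class, log axis) in each gated class at 0 Gy (circles) and 4 Gy (diamonds); the starred tumour-like class has under 50 cells at 4 Gy. Class I lies lower at 4 Gy in every class drawn except the tumour-like one, while class II is higher at 4 Gy mainly in the aerocyte-like and NK-like classes.

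Counted over the list, differences of 1.5-fold were few in most classes and are set here beside the share of all genes that differed as much. General capillary-like cells had 1 of 31 measured genes higher and 2 lower (all genes: 9.96% higher and 7.84% lower). Those counted lower were the weakly detected H2-Ob (4.40 and 1.77 CPM) and Ctss (7 and 3 UMIs). Aerocyte-like cells had 7 of 28 higher and 2 lower (15% and 7.27%), arterial-like cells 5 of 27 higher and 1 lower (21.5% and 15.3%), and venous-like cells 1 of 28 higher and 2 lower (18.5% and 13.7%). Tumour-like cells had 6 of 27 higher and 1 lower (19.8% and 21.2%). Among these CD45-negative classes, the aerocyte-like count of higher genes was the furthest above its background share, and 5 of the 7 were class II molecules or loading factors. In the CD45-positive sort, classical monocyte-like cells had 4 of 31 higher and 0 lower (17.1% and 8.15%), and nonclassical monocyte-like cells 1 of 31 higher and 9 lower (15% and 14%). Interstitial macrophage-like cells had 2 of 32 higher and 2 lower (14.3% and 12.1%), conventional dendritic-like cells 1 of 32 higher and 0 lower (18.8% and 12.9%), and B-like cells 0 of 32 in either direction (10.5% and 6.44%). Of these leukocytes, the nonclassical monocyte-like cells alone had a larger share of lower genes than their background.

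In general capillary-like cells, the main capillary endothelium of the alveolus, most of the listed genes were slightly lower after irradiation, with 4 of the 31 measured above 0 on the log2 scale. The 9 class I molecules summed to 16833 CPM at 0 Gy and 15201 CPM at 4 Gy, a ratio of 0.903 [0.896, 0.910], and 9 of 9 lay below 0 on the log2 scale. None was 1.5-fold different, where 9.96% of all genes in this class were higher and 7.84% lower by that measure. H2-D1 went from 6058 to 5258 CPM (0.868 [0.856, 0.880]). H2-K1 went from 4932 to 4503 CPM (0.913 [0.900, 0.927]), and B2m from 2008 to 1946 CPM (0.969 [0.947, 0.991]). The light chain thus differed least of these. Among the nonclassical class I genes, H2-T23, which encodes the ligand of an inhibitory NK receptor, was 0.781 times its 0 Gy level [0.753, 0.810].

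Peptide supply was lower as well in these cells, 2555 against 2186 CPM (0.856 [0.838, 0.874]). The 3 immunoproteasome subunits summed to 1305 and 1080 CPM (0.828 [0.803, 0.852]), and the 3 constitutive subunits they replace to 456 and 419 CPM (0.918 [0.874, 0.964]). Psme2 had the lowest ratio of the listed genes with at least 50 UMIs, 61.2 against 41.5 CPM (0.678 [0.584, 0.786]). The peptide transporter differed less: Tap1 was at 144 and 136 CPM (0.944 [0.866, 1.029]) and Tap2 had a ratio of 1.087.

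Class II was well expressed in general capillary-like cells, 3892 CPM at 0 Gy and 3279 CPM at 4 Gy (0.842 [0.828, 0.857]). H2-Aa went from 533 to 407 CPM (0.764 [0.728, 0.801]), H2-Ab1 from 743 to 590 CPM and H2-Eb1 from 484 to 400 CPM. Cd74, the most abundant, went from 1825 to 1602 CPM (0.878 [0.856, 0.900]), while Ciita stood at 46.7 and 48.4 CPM (1.038 [0.894, 1.205]). The class II chains were lower while the transcript of their activator was not detectably different. After each cell was thinned to 1000 UMIs, 77.4% of cells at 0 Gy and 71.4% at 4 Gy held a UMI of H2-Aa, H2-Ab1, H2-Eb1 or Cd74. In T-like cells of the other sort, which do not make class II in mice, the same share was 20.2% and 17.2%. Their median was 4057 and 3263 UMIs per cell, against 1810 and 1961 in the capillary cells.

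The capillary cells were also divided by Lyve1. This gene, a hyaluronan receptor best known from lymphatic vessels, was detected in 52.2% of these cells at 0 Gy and 78.0% at 4 Gy. Cells without a Lyve1 UMI had 4386 CPM of class II at 0 Gy and 4612 CPM at 4 Gy (1.052 [1.020, 1.084]). Cells with at least 1 Lyve1 UMI had 3507 and 2973 CPM (0.848 [0.830, 0.866]). Class II was thus lower in the Lyve1-positive cells at both doses, and the irradiated library held more of them. In the cells without, the genes of the sum were divided: H2-Aa was lower at 4 Gy (593 and 532 CPM, 0.897 [0.822, 0.979]) while Cd74 was higher (2081 and 2337 CPM, 1.123 [1.076, 1.172]). Both were lower in the Lyve1-positive cells, at 0.778 and 0.882 times their 0 Gy levels. The difference between the 2 kinds of cell was not tested. Class I was lower in both kinds of cell, 0.937 and 0.901 times its 0 Gy level. The part of Lyve1 detection and depth in this was not tested.

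Ifi30, a thiol reductase that opens disulphide bonds of class II antigens, had the highest ratio of the listed genes measured in general capillary-like cells. It was at 22.9 CPM in the unirradiated and 50.2 CPM in the irradiated cells (2.197 [1.835, 2.636]). In venous-like cells its level was 8.27 CPM (3 UMIs) and 40.6 CPM (17 UMIs), and in aerocyte-like cells 3.56 CPM (6 UMIs) and 12.1 CPM (19 UMIs). The levels are low in all of them beside 1024 and 958 CPM in classical monocyte-like cells. In arterial-like cells Ifi30 was at 20.6 and 18.7 CPM from 4 and 6 UMIs (0.905 [0.215, 4.361]), too few to show a direction.

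Aerocyte-like cells, the thin capillary cells of gas exchange, had the lowest class II of the endothelium. Their class I sum was 15078 CPM at 0 Gy and 12737 CPM at 4 Gy (0.845 [0.829, 0.861]) and their peptide supply 2116 and 1766 CPM (0.835 [0.794, 0.877]). The immunoproteasome gave the lowest ratio of these sums, 0.746 [0.695, 0.802], with Psmb10 at 367 and 247 CPM. In class I and its supply the aerocyte-like cells therefore went the same way as the general capillary-like cells.

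Class II in aerocyte-like cells went the other way, from 297 to 663 CPM (2.230 [2.003, 2.486]). Of 6 class II genes with enough UMIs, 5 were at least 1.5-fold higher, where 15% of all genes in the class were. H2-Aa was at 39.8 and 89.3 CPM, H2-Ab1 at 43.9 and 112 CPM, H2-Eb1 at 30.3 and 86.7 CPM, and Cd74 at 154 and 319 CPM. All 4 remained far below the general capillary-like cells at either dose. After thinning, 9.41% of aerocyte-like cells at 0 Gy and 19.0% at 4 Gy held a UMI of these 4 genes. The T-like cells of the other sort had 20.2% and 17.2%. The counting intervals at 4 Gy overlapped ([15.1, 23.5] aerocyte-like, [15.7, 18.8] T-like). That sort held more class II: Cd74 over all cells was at 10602 and 8226 CPM, against 1945 and 1505 CPM in the CD45-negative libraries. The T-like share is therefore not a background for aerocyte-like cells. A background for the CD45-negative sort was not measured.

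General capillary genes were higher in the same cells. The 6 general capillary markers (Gpihbp1, Plvap, Kit, Sema3c, Cd93 and Tek) summed to 949 CPM in aerocyte-like cells at 0 Gy and 1762 CPM at 4 Gy. In the 348 and 231 aerocyte-like cells with 0 or 1 of these markers, class II was at 34.2 CPM (38 UMIs) and 31.6 CPM (26 UMIs), a ratio of 0.923 [0.538, 1.561]. In the 136 and 126 cells with 2 or more, it was at 805 and 1359 CPM (1.688 [1.511, 1.889]). The few UMIs leave the first ratio wide, its interval overlaps that of the second, and the difference between the 2 kinds of cell was not tested. Class I was lower to a similar degree in both kinds, 0.847 and 0.840 times its 0 Gy level. The leukocyte markers summed to 44.5 and 52.9 CPM in the whole class, the arterial markers to 72.4 and 173 CPM, and the red cell markers to 107 and 2569 CPM (180 and 4030 UMIs). The part of these markers in the result was not tested. Without cells marked as likely doublets, class II was at 119 CPM at 0 Gy and 434 CPM at 4 Gy, a ratio of 3.648. Both levels were below the 297 and 663 CPM of the whole class.

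**Figure D2:**
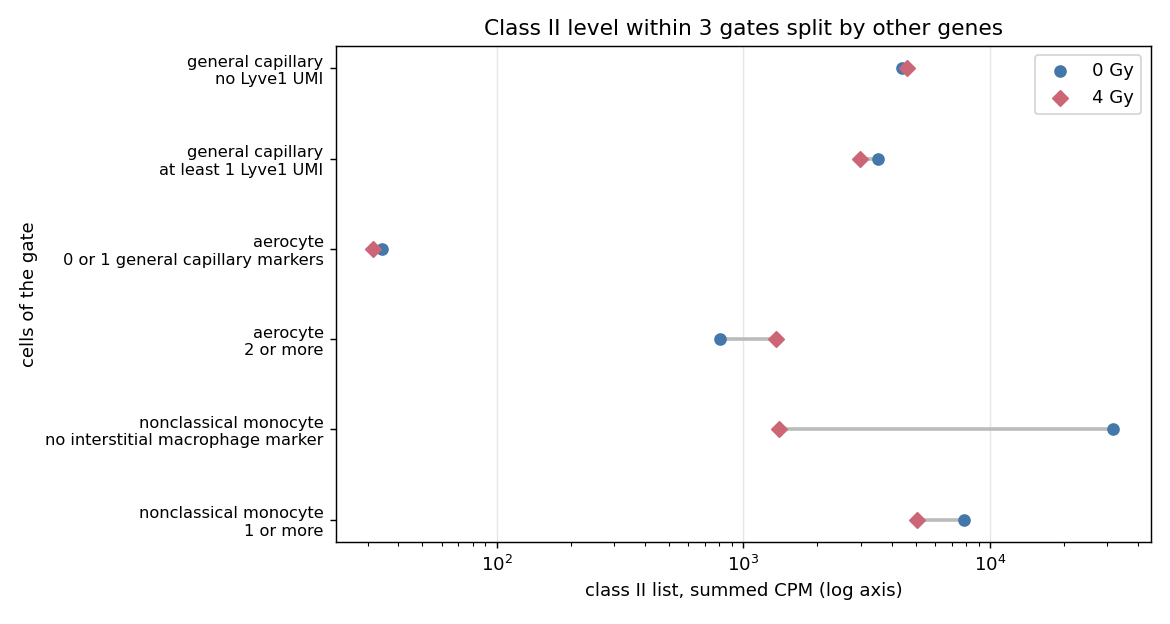
Class II list level (summed CPM, log axis) at 0 Gy (circles) and 4 Gy (diamonds) in cells of 3 gates split by Lyve1 or by markers of another class. Aerocyte-like cells with 0 or 1 general capillary markers lie near 30 CPM at both doses, and the 12 nonclassical monocyte-like cells without an interstitial macrophage marker at 0 Gy lie far above all others.

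Arterial-like and venous-like cells were few, and their intervals are wide. In arterial-like cells the class I ratio was 0.983 [0.936, 1.032], that of peptide supply 0.978 [0.871, 1.098] and that of class II 1.008 [0.902, 1.127], none of them separable from 1 by counting. Tapbp was higher (288 and 448 CPM, 1.552 [1.132, 2.153]), as was H2-DMa from 6 and 32 UMIs. Of the 10 peptide supply genes, 3 were 1.5-fold higher (Tapbp, Tap1 and, from 10 and 25 UMIs, Erap1) and 1 lower (Psme2, from 11 UMIs in each library), where 21.5% and 15.3% of all genes in this class were. The class II ratio in arterial-like cells was 1.331 with equal weight per cell, 1.643 after thinning to 1000 UMIs and 1.312 under the stricter gate. That gate held only 12 and 18 arterial-like cells, under the minimum of 50, and also gave 1.133 for class I and 1.179 for peptide supply. Venous markers summed to 1164 and 1753 CPM in arterial-like cells, and arterial markers to 1787 and 1669 CPM. General capillary markers lay above both there, at 7356 and 7113 CPM, against 9568 and 7699 CPM in general capillary-like cells. The part of these 3 marker lists in the arterial-like ratios was not tested. In venous-like cells class I was at 0.940 [0.906, 0.976], peptide supply at 0.873 [0.793, 0.962] and class II at 0.913 [0.844, 0.988]. Under the stricter gate the last 2 turned, to 1.001 and 1.106. Red cell markers summed to 12922 and 38.2 CPM in venous-like cells, club cell markers to 4 and 168 UMIs and mural markers to 63.4 and 306 CPM. General capillary markers summed to 6704 and 6204 CPM in venous-like cells, beside 6949 and 6730 CPM for venous markers. The part of all these markers in the venous-like ratios was not tested. Nlrc5 and Ciita together were at 99.3 and 54.9 CPM there (0.553 [0.313, 0.960]), and both were counted as lower, where 13.7% of all genes in the class were. Taken singly, each interval includes 1: Nlrc5 had 9 and 3 UMIs (0.289 [0.050, 1.157]) and Ciita 27 and 20 UMIs (0.641 [0.341, 1.187]).

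Tumour-like cells, recognised by keratins and Cdkn2a, had the lowest class I of the CD45-negative classes at 0 Gy, and it was higher in the irradiated library. The 9 class I molecules summed to 6783 CPM in 87 cells and 8977 CPM in 32 cells (1.323 [1.256, 1.394]). H2-K1 was at 2361 and 3390 CPM (1.436 [1.316, 1.566]), H2-D1 at 2303 and 2850 CPM, and B2m at 1592 and 1822 CPM. H2-T23 had a ratio of 1.710 [1.343, 2.174], and H2-Q4 one of 4.964 [2.272, 11.684] from 10 and 23 UMIs. Every class I molecule measured in this class, 8 of 8, was above 0 on the log2 scale, and 3 were 1.5-fold higher against 19.8% of all genes. Cell by cell the order was different: after thinning, 89.9% of 69 cells at 0 Gy and 82.1% of 28 cells at 4 Gy held a class I UMI, and the median cell held 5 and 4. Before thinning, the 10% of cells with the most class I (9 and 4 cells) held 53.4% and 57.5% of its UMIs. The sums thus rested on few cells at both doses.

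In peptide supply the transporter and Tapbp had higher values in these cells. Tap1 was at 56.2 and 137 CPM (2.437 [1.459, 4.086]). After thinning it was at 29.0 CPM at 0 Gy (69 cells) and 0 at 4 Gy (28 cells), too few UMIs to show a direction. Tap2 was at 41.7 and 86.0 CPM, and Tapbp at 159 and 274 CPM (1.717 [1.236, 2.377]). The immunoproteasome summed to 1495 and 1497 CPM (1.002 [0.885, 1.132]), and Psme2 had a ratio of 0.679 [0.369, 1.190]. Class II was at 1888 and 1978 CPM (1.048 [0.941, 1.167]). The 2 groups of cells differed in depth (median 2547 and 5193 UMIs), and thinning them to a common depth gave a class I ratio of 1.196. Leukocyte markers were at 9.06 and 15.6 CPM and club cell markers at 19.9 and 141 CPM. Mesothelial markers were at 92.4 and 297 CPM (51 and 76 UMIs) and fibroblast markers at 129 and 227 CPM. The part of these markers in the result was not tested.

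**Figure D3:**
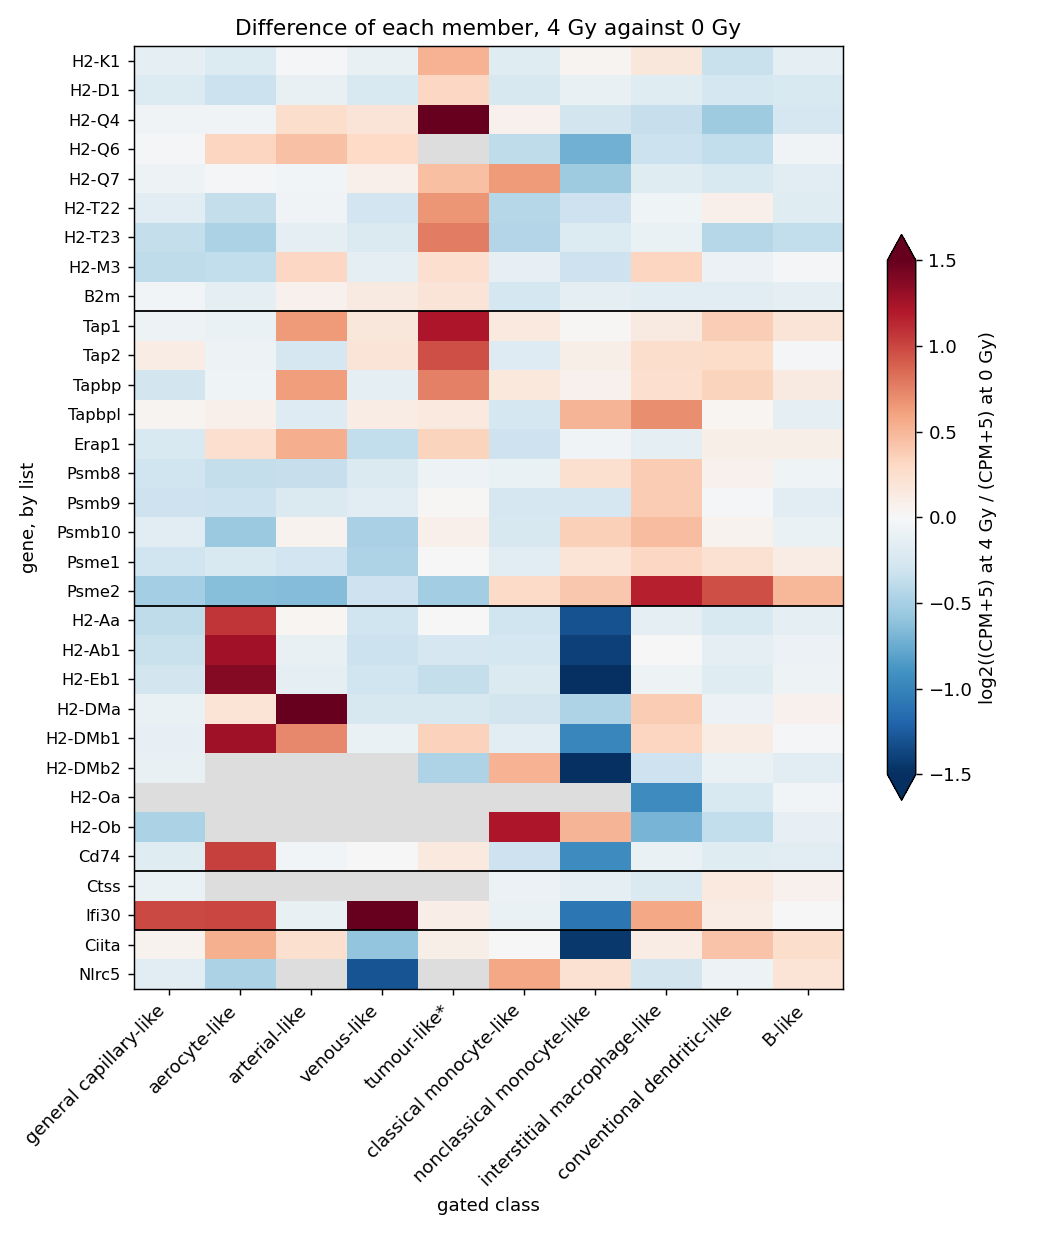
Difference of each listed gene (rows, grouped by list) between 4 Gy and 0 Gy in each gated class, as log2 of the ratio of CPM + 5; red is higher at 4 Gy, blue lower, and grey has under 10 UMIs. The tumour-like column is red for class I, the aerocyte-like column red and the nonclassical monocyte-like column blue for class II, and Psme2 is blue in the CD45-negative classes and red in the CD45-positive ones.

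Among leukocytes, class I was also lower at 4 Gy in each compared class. The class I ratio was 0.847 [0.821, 0.873] in classical monocyte-like, 0.927 [0.895, 0.961] in nonclassical monocyte-like, 0.945 [0.918, 0.973] in interstitial macrophage-like, 0.829 [0.790, 0.869] in conventional dendritic-like and 0.882 [0.872, 0.893] in B-like cells. T-like cells (0.882) and NK-like cells (0.926), used here for background, had similar ratios. Alveolar macrophage-like cells (14 and 32), too few to compare, had a class I ratio above 1 (1.202 [1.086, 1.331]), with 8 of 9 genes above 0. After thinning, their median cell held 7.5 class I UMIs at 0 Gy and 5 at 4 Gy. Their class II ratio was 0.751 [0.692, 0.815]. H2-D1 was lower in all 5 compared classes, by the least in nonclassical monocyte-like cells (0.926 [0.873, 0.983]). H2-K1 was not lower in all of them: its ratio was 1.029 [0.957, 1.107] in nonclassical monocyte-like cells, and it was at 2179 and 2457 CPM in interstitial macrophage-like cells (1.128 [1.063, 1.197]). In the interstitial macrophage-like class the direction of the class I sum depended on how cells were weighted, with 1.016 when each cell counted alike.

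Peptide supply did not follow class I in these cells. It was higher in interstitial macrophage-like cells, 1723 against 2245 CPM (1.303 [1.221, 1.391]), where 9 of 10 genes were above 0. In the same cells B cell markers summed to 427 and 186 CPM, NK markers to 261 and 74.7 CPM, cDC2 markers to 332 and 574 CPM and classical monocyte markers to 1562 and 2251 CPM; their part in the result was not tested. Peptide supply was higher too in conventional dendritic-like cells, 3370 against 3784 CPM (1.123 [1.056, 1.193]), and in nonclassical monocyte-like cells (1.118 [1.027, 1.219]). It was level in B-like cells (1.007 [0.984, 1.031]) and slightly lower in classical monocyte-like cells (0.939 [0.889, 0.991]). In the classical monocyte-like class the direction depended on the gate, with 1.036 under the looser one.

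Psme2, the beta subunit of the proteasome activator, was above 0 on the log2 scale in each CD45-positive class compared and below it in each CD45-negative one. It was at 57.4 and 135 CPM in interstitial macrophage-like cells (2.345 [1.675, 3.352]) and 93.6 and 188 CPM in conventional dendritic-like cells (2.012 [1.449, 2.816]). In B-like cells it was at 44.7 and 65.4 CPM (1.463 [1.284, 1.670]). In aerocyte-like cells it was at 60.5 and 37.0 CPM (0.611 [0.435, 0.851]), lower as in general capillary-like cells. Its partner Psme1 differed less, with 246 and 306 CPM in the interstitial macrophage-like cells. Of 10 peptide supply genes, 2 were 1.5-fold higher in these macrophages, where 14.3% of all genes were. The difference between sorts was not tested.

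Class II was highest in conventional dendritic-like cells (61118 and 54145 CPM), then B-like (32816 and 29907 CPM) and interstitial macrophage-like cells (29507 and 28050 CPM). The ratios were 0.886 [0.873, 0.899], 0.911 [0.907, 0.916] and 0.951 [0.935, 0.966]. No class II gene was 1.5-fold different in the dendritic-like or B-like cells, where 12.9% and 6.44% of all genes were lower. Ciita was higher in both, at 462 and 624 CPM in the dendritic-like cells (1.352 [1.153, 1.585]) and 289 and 348 CPM in the B-like cells (1.204 [1.142, 1.270]). Neither Ciita ratio reached 1.5-fold. In interstitial macrophage-like cells the chains differed little (H2-Ab1 0.995 [0.955, 1.037]), and Ifi30 was at 826 and 1237 CPM (1.497 [1.365, 1.644]). Under equal weight per cell the class II ratio in these macrophages was 1.007.

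The conventional dendritic-like class pools 2 kinds with under 50 cells each. The cDC1-like kind, specialised in presenting taken-up antigen on class I, had 29 and 24 cells, and the cDC2-like kind 23 and 30. Class II was at 55419 and 44615 CPM in cDC1-like cells (0.805 [0.787, 0.823]) and at 70239 and 62817 CPM in cDC2-like cells (0.894 [0.876, 0.913]). Peptide supply was higher in cDC1-like cells (1.263 [1.170, 1.364]), with 10 of 10 genes above 0 and Psme2 at 81.1 and 240 CPM, and closer to level in cDC2-like cells (1.048 [0.946, 1.160]). Mature dendritic-like cells (19 and 20) had class II at 46733 and 31409 CPM (0.672 [0.648, 0.697]). Differences between the kinds were not tested.

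**Figure D4:**
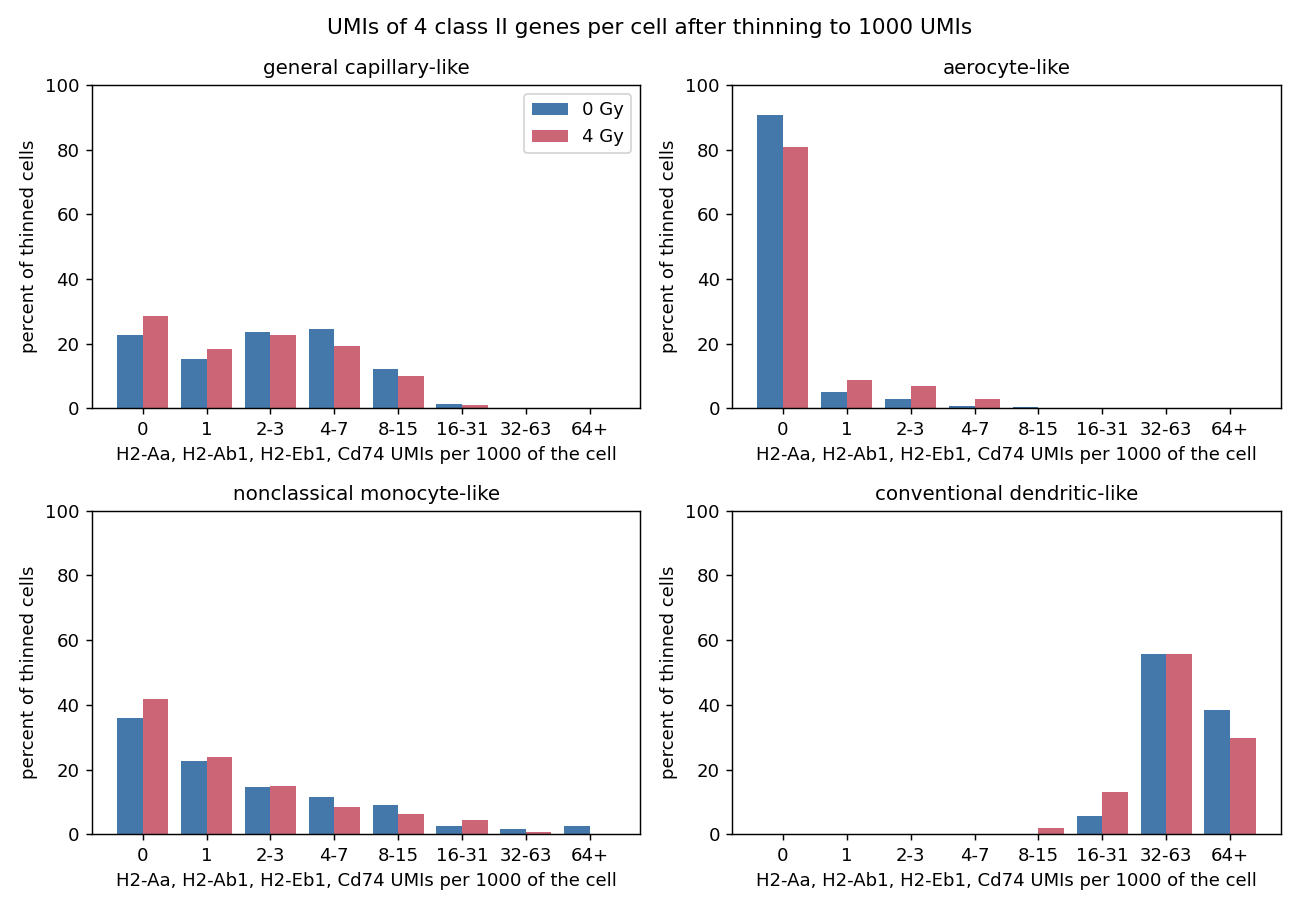
Share of cells (percent, bars) by the number of H2-Aa, H2-Ab1, H2-Eb1 and Cd74 UMIs, after each cell was thinned to 1000 UMIs, at 0 Gy and 4 Gy in 4 gated classes. Most aerocyte-like cells hold none at either dose, conventional dendritic-like cells all hold several, and a few nonclassical monocyte-like cells at 0 Gy hold 64 or more.

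Nonclassical monocyte-like cells, which patrol the vessel wall, had the lowest class II ratio among the classes compared. The sum was 10190 CPM at 0 Gy and 4704 CPM at 4 Gy (0.462 [0.441, 0.483]), and 6 of 8 genes measured were 1.5-fold lower, where 14% of all genes in the class were. H2-Eb1 was at 1210 and 386 CPM (0.319 [0.273, 0.372]), H2-Ab1 at 1421 and 533 CPM, H2-Aa at 1463 and 587 CPM, and Cd74 at 5706 and 2969 CPM (0.520 [0.490, 0.552]). Ciita went the same way, 56.9 and 17.8 CPM from 27 and 11 UMIs (0.312 [0.140, 0.651]), as did Ifi30 (344 and 160 CPM). Of the wider pathway, the interferon-response factor Irf1 was lower too (162 and 90.5 CPM, 0.558 [0.388, 0.797]).

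The size of this deficit rested on few cells and on the gate. The 10% of cells with the most UMIs of the 4 class II genes held 84.5% (0 Gy) and 77.0% (4 Gy) of them. These shares were counted before thinning. After thinning, the median cell held 1 UMI per 1000 at both doses. At 0 Gy, 12 cells with no interstitial macrophage marker held 1456 class II UMIs (31741 CPM), while 31 such cells at 4 Gy held 85. In the other 125 and 166 cells the level was 7883 and 5062 CPM (0.642 [0.611, 0.675]). The ratio was 0.649 under a looser gate and 0.557 after thinning, and it was 0.486 [0.444, 0.532] in cells with no B cell marker. It stayed below 1 in each of these. The interstitial macrophage markers summed to 4456 and 2648 CPM and the B cell markers to 588 and 718 CPM. The cDC2 markers summed to 124 and 71.1 CPM (59 and 44 UMIs) and the NK markers to 16.9 and 187 CPM. The part of these markers in the result was not tested. Neutrophil-like cells, taken as background, had class II at 3868 and 2750 CPM (0.711 [0.682, 0.741]).

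Classical monocyte-like cells had class II at 9409 and 7737 CPM (0.822 [0.80, 0.845]), with Cd74 at 4989 and 4017 CPM and Ciita at 105 CPM in both libraries. The looser gate, which admitted 184 and 378 cells in place of 161 and 315, gave 0.998, so the difference was not seen there. It was 0.760 under a stricter gate and 0.757 after thinning. Both gates had been tried, with their ratios seen, before the narrower was taken as the main one. Of class II genes, 2 of 8 were 1.5-fold higher (17.1% of all genes were), H2-DMb2 (16.8 and 26.4 CPM) and, from 1 and 15 UMIs, H2-Ob. Before thinning, the 10% of cells with the most UMIs of H2-Aa, H2-Ab1, H2-Eb1 and Cd74 (17 and 32 cells) held 75.7% and 74.4% of them. After thinning, the median cell held 1 and 0. B cell markers summed to 216 and 412 CPM, cDC2 markers to 237 and 128 CPM and interstitial macrophage markers to 3326 and 2767 CPM. The part of these markers in the result was not tested.

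NK-like cells had class II at 799 and 1536 CPM (1.922 [1.793, 2.062]). Mouse NK cells are not known for class II. Before thinning, the 10% of cells with the most held 85.7% and 93.1% of the UMIs of the 4 class II genes. In NK-like cells with no B cell marker the values were 547 and 771 CPM (1.408 [1.264, 1.570]), and in those with 1 or more 1295 and 3059 CPM (2.362 [2.154, 2.593]). In the cells with no B cell marker Cd74 was higher (1.661 [1.410, 1.964]), while H2-Aa had a ratio of 0.893 [0.670, 1.194]. Interstitial macrophage markers summed to 44.3 and 126 CPM in NK-like cells, neutrophil markers to 51.8 and 220 CPM and cDC2 markers to 10.5 and 38.7 CPM; their part in the result was not tested. After thinning, 18.4% and 17.5% of NK-like cells held a class II UMI, so the share of cells was not higher at 4 Gy.

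Of the 13 further H2- genes, most were near the limit of detection and 2 (H2-Bl and H2-M5) had 14 and 19 UMIs over all 4 libraries. H2-K2, a pseudogene beside H2-K1, and H2-T24 were measured in most classes; H2-T24 was lower in aerocyte-like cells (32.6 and 17.2 CPM, 0.527 [0.320, 0.850]). Class I genes resemble each other closely, so reads may have been split among H2-Q4, H2-Q6, H2-Q7 and H2-Q10 or between H2-K1 and H2-K2, and single members of these groups are uncertain. A wider list of 34 genes of the same pathway was close to level in the capillary classes, with ratios of 1.003 [0.987, 1.019] in general capillary-like and 1.006 [0.974, 1.039] in aerocyte-like cells. Cd1d1, which presents lipids to NKT cells, was among its few lower genes in general capillary-like cells (72.4 and 44.3 CPM, 0.612 [0.531, 0.704]).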

How the data were processed

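Each library came as a table of log2 expression per cell and gene, made by the authors; the submitters' processing notes list mm10 as the build, and Partek, STAR and Seurat as tools, with neither role nor version. Undoing the log2 step gave values summing to 1000000 per cell, and 99.9997% to 99.9998% of non-zero values were whole multiples (tolerance 0.02) of the cell's smallest step, so UMI counts were recovered from them. The tables hold log2 values where counts had been foreseen, and the recovered counts were used as planned.

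Cells were gated by distinct markers detected: at least 3 of a class, at least 4 endothelial or 2 leukocyte markers, and, among leukocytes, a lead of 15 percentage points in the share of markers found. The members, lists and markers were chosen with earlier results of these data known. The gate thresholds were set after seeing the data, in steps: a lead of 5 points was first adopted to gain cells, and 15 points was taken as the main setting only after the ratios under both had been seen, because B cell markers in nonclassical monocyte-like cells then summed to 588 in place of 1532 CPM at 0 Gy. Ratios under both are given where they differ in direction or size. Splits of classes by markers of another class were also added after seeing the data.

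UMIs were summed per class and library (Python 3.11.15, numpy 2.4.6, scipy 1.17.1, pandas 2.3.3). Intervals are exact conditional binomial at 95% (shares: exact Clopper-Pearson); molecules of 1 cell are not independent, so both kinds of interval reflect counting alone. No test was run, since a group is a single library. Cells were also thinned to 1000 UMIs. Scrublet (scanpy 1.11.5) marked 0.067% and 0.046% of CD45-negative cells at its automatic threshold, which was taken as not having worked; an expected rate of 0.8% per 1000 cells was used instead, as an alternative only, and doublets were otherwise kept. Named were 11 fixed genes in each class, the 3 highest and 3 lowest with at least 50 UMIs, and members at least 1.5-fold different whose interval excludes 1, with the few that matter given in full. The ratio and its interval were tested on simulated class sums of independent counts, the setting that the interval assumes. The simulation held no differences between cells or libraries, so it says nothing of those. Alternatives were thinning, equal weight per cell, a stricter and a looser gate, doublet removal, median-of-ratios scaling, other pseudocounts (1 and 50 CPM) and other UMI minimums.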

Additional observations from a re-analysis of the deposited data

Results flagged for a closer look

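The summed class II ratio was above 1 in aerocyte-like cells (2.23) and below 1 in general capillary-like (0.842) and venous-like cells (0.913) of the same 2 libraries, with each counting interval on its own side of 1. The summed peptide supply ratio was above 1 in interstitial macrophage-like (1.303), conventional dendritic-like (1.123) and nonclassical monocyte-like cells (1.118) and below 1 in classical monocyte-like cells (0.939). These opposite directions were picked out by their direction alone; the differences between classes were not tested.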

How the results depend on the processing

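No paired analysis was possible because each dose and sort has 1 library. Ratios are for class I, peptide supply and class II sums. The 7 classes given most weight were general capillary, aerocyte, both monocyte classes, interstitial macrophage, conventional dendritic and B. Of the alternatives to their sums, 81 gave a value within the main counting interval. A further 40 moved outside it and 5 were counted as reversed. Among the 40, peptide supply in B-like cells, whose main interval includes 1, went from 1.007 to 0.967 under median-of-ratios scaling. The cause was not tested. Reversed were class II in general capillary-like cells without Lyve1 (1.052), peptide supply in classical monocyte-like cells under the looser gate (1.036), class II in interstitial macrophage-like cells thinned (1.009) or with equal weight per cell (1.007), and class I in them with equal weight (1.016). Elsewhere, venous-like peptide supply (1.001) and class II (1.106) reversed under the stricter gate, and Tap1 in tumour-like cells came to 0 after thinning.

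Median-of-ratios scaling gave 0.878, 0.832 and 0.819 (class I, peptide supply, class II) in general capillary-like cells, 0.814 (class I) in aerocyte-like, 0.804 and 0.780 (class I, class II) in classical monocyte-like, 0.784 and 0.838 (class I, class II) in conventional dendritic-like, and 0.847, 0.967 and 0.875 in B-like cells. Thinning gave 0.851 and 0.757 (peptide supply, class II) in classical monocyte-like cells, 0.557 (class II) in nonclassical, 0.980 (class I) in interstitial macrophage-like, 1.303 and 0.851 (peptide supply, class II) in conventional dendritic-like, and 0.896 and 0.941 (class I, class II) in B-like cells. Equal weight per cell gave class II ratios of 0.580 (nonclassical), 0.852 (conventional dendritic) and 0.945 (B), and 0.894 for class I in B-like cells. The stricter gate gave class II ratios of 0.760 (classical), 0.535 (nonclassical) and 0.977 (interstitial macrophage). Doublet removal gave class II ratios of 3.648 (aerocyte), 0.440 (nonclassical) and 0.927 (B), and 0.829 for class I in aerocyte-like cells. The looser gate, added after seeing the data, gave class I 0.881 and class II 0.998 in classical monocyte-like cells, class II 0.649 in nonclassical and 0.902 in interstitial macrophage-like cells, 0.788, 1.041 and 0.923 in conventional dendritic-like cells, and class II 0.906 in B-like cells. General capillary-like cells without Lyve1 gave class I 0.937 and peptide supply 0.908.

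With 1 library per group, differences between mice or preparations cannot be told apart from dose. Depth limits Nlrc5, H2-Oa and H2-Ob, under 10 UMIs in several classes, and every value of the tumour-like, arterial-like and cDC1-like cells.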
